A study of Mus musculus with 36 samples.

Results

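Selective autophagy was followed through 10 genes, 5 cargo receptors (Sqstm1, Nbr1, Optn, Tax1bp1 and Calcoco1) and 5 genes of the ATG8 family (Map1lc3a, Map1lc3b, Gabarap, Gabarapl1 and Gabarapl2). They were chosen by name as the classical soluble receptors and the ATG8 genes, with earlier results of these data known. Each was found among the 136300 genes of the liver table and the 32266 genes of the fibroblast table. All 10 passed the filter on low values in both. Polyadenylated RNA was sequenced with and without Vps15, encoded by Pik3r4, the regulatory partner of the autophagy lipid kinase Vps34. The series held 12 libraries from mouse liver and 24 from mouse embryonic fibroblasts (MEFs), in groups of 3. The liver groups were Vps15LKO fasted for 24 h, WT fasted for 24 h, Vps15LKO fed ad libitum and WT fed ad libitum. All were 4-week-old males killed at zeitgeber time 14, after the lights went off. The labels give Vps15LKO as Ttr CRE+, Vps15f/f, a floxed Vps15 gene with CRE from the Ttr promoter, which is active chiefly in hepatocytes, so other liver cells are not the target. They give the other genotype as WT alone, and the floxed and CRE status of WT mice was not given in the sources used here. The MEFs all carried Vps15f/f and differed by the adenovirus they received, CRE (labelled Vps15KO) or GFP (labelled WT). Their media were basal, methionine-free for 4 h, or methionine-free for 4 h followed by 1 h or 4 h with methionine again. Liver RNA came from powder of whole liver, although the labels name the cell type as hepatocyte. Nothing says whether the libraries of a group came from separate animals or cultures, so p-values measure the spread between these libraries.

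Selective autophagy removes protein aggregates, damaged organelles and microbes. A cargo receptor binds ubiquitin-marked or otherwise tagged cargo with one part and, with a short LC3-interacting motif, an ATG8 protein that is tethered to the growing autophagosome membrane. Vps15 and its lipid kinase Vps34 make the phosphatidylinositol 3-phosphate that recruits the machinery attaching ATG8 proteins to that membrane. The receptors and the membrane-bound ATG8 proteins are themselves degraded in the lysosome, so the p62 protein made from Sqstm1 is widely used as a readout of autophagic flux. In liver, p62 builds up when autophagy is lost, sequesters KEAP1 and so frees the transcription factor NRF2, of which Sqstm1 is a known target. The values here are RNA levels and say nothing of protein amount or flux.

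Promoter sequence was looked at first, because several members moved together in liver. Windows from RefSeq (build GRCm38.p6) reaching from 250 bases before to 50 bases after a gene's start were on hand for 9 members, 11 windows in all. They were searched on both strands for the antioxidant response element core TGACNNNGC (letters NRF2 binds), the CLEAR core CACGTG (TFEB and TFE3), the FOXO letters GTAAACA and the amino acid response letters TGATGNAA (ATF4). Of 44 searches, 2 found a match, both for the antioxidant core, in a Tax1bp1 window and just after the Map1lc3b start. That core stood in 12.4% of all 32851 windows of the same length, the CLEAR core in 7.15%, the FOXO letters in 3.65% and the amino acid response letters in 3.97%. The 2 matches are shown with the matching letters in capitals, followed by the bases upstream of Sqstm1 and Gabarapl1, the pair of members that stood farthest apart in fasted Vps15LKO liver. These windows held none of the 4 motifs, and a match or its lack is a description of letters only.
Tax1bp1, chr6:52713950-52713978, plus strand: gtctccgtggTGACGAAGCtctctttccc
Map1lc3b, chr8:121590432-121590460, plus strand: gcgagtcaccTGACTCGGCtgcggactga
Sqstm1, chr11:50210828-50211070, minus strand: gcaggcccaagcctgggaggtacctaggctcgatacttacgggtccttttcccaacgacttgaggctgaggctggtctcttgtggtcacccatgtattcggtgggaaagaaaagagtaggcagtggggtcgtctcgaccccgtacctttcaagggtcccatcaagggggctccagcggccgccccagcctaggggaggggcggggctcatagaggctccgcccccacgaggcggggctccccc
Gabarapl1, chr6:129532942-129533159, plus strand: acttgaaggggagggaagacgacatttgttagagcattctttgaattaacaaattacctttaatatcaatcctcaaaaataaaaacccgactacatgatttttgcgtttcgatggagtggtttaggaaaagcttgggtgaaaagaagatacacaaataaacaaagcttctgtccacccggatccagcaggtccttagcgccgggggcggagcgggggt

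The liver libraries held 9110836 to 12870944 counts and the MEF libraries 19345029 to 21245006 recovered counts. Pik3r4, the targeted gene, stood between 17.6 and 25.3 CPM (the usual depth-scaled count, here with TMM factors of 0.801 to 1.22) over all 12 liver libraries and did not differ by genotype (log2 difference −0.08 ± 0.14 (SE) fasted and 0.18 ± 0.14 fed, edgeR adjusted p = 0.663 and 0.312). Which exons are floxed is not stated in the labels, so these gene totals check nothing about the deletion. The summed CPM of 8 hepatocyte markers was 14813 to 17466 in fasted Vps15LKO, 40895 to 42691 in fasted WT, 13686 to 16166 in fed Vps15LKO and 32479.9 to 34609.5 in fed WT libraries. That of 10 macrophage markers was 2139 to 2406, 427 to 599.8, 2284 to 2579 and 1318 to 1713 in the same order of groups. That of 5 cholangiocyte markers was 165 to 222, 43.3 to 51.3, 143 to 210.5 and 50.9 to 57.1. All markers of these lists had counts in every group. Stellate, endothelial, neutrophil and lymphocyte sums were also above those of fasted WT in every fasted Vps15LKO library. Single markers were less uniform. In fasted Vps15LKO against fasted WT, 28.2% of all tested genes were called higher and 28.1% lower. There 5 of 7 stellate markers were called higher and 1 lower, and 3 of 6 endothelial markers higher and 2 lower. Of the tested markers, 4 of 5 for neutrophils and 1 of 4 for lymphocytes were called higher, the latter near the share of all genes. The sum of 7 fibroblast markers was lower, at 1225 to 1317 in fasted Vps15LKO and 2018 to 2429 in fasted WT, although 5 of the 7 were called higher and 1 lower. Ly6g of the neutrophil list had 0 counts in WT. Their part in the members' differences was not tested, and in bulk liver fewer cells of a type and less RNA per cell cannot be told apart.

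Per kilobase of exon, Sqstm1 and Gabarap were the most abundant members in liver, with medians of 207 and 199.6 CPM per kilobase over the 12 libraries. Gabarapl1 (74.1), Map1lc3a (70.6), Map1lc3b (23.3), Nbr1 (22.3), Optn (20.4), Gabarapl2 (13.1), Tax1bp1 (12.5) and Calcoco1 (11.3) followed on the same scale. Of the 9 neighbouring pairs in this order, 1 did not overlap in its library values, Gabarap (lowest 184) and Gabarapl1 (highest 168). These levels rest on counts over whole genes. They were divided by the union of all annotated exons, 1181 bases for Map1lc3a, 7517 for Map1lc3b and 9991 for Tax1bp1, so the order depends on the annotation. Without division by length, Map1lc3b had more CPM than Map1lc3a in every liver group, for example 272 against 84.8 on average in fasted WT. Sqstm1 shares 580 exonic bases (17.3% of its exons) with Mrnip and Gabarapl1 shares 570 (28.3%) with 1700101I11Rik, both on the opposite strand. The library kit marks strand, but the strand setting of the counting was not given in the sources used here.

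Sqstm1 encodes p62, which binds ubiquitinated cargo and gathers it into bodies (ENSMUSG00000015837, mm10 chromosome 11, 50199366 to 50210827, minus strand). It had 962, 960.4 and 1114 CPM in fasted Vps15LKO libraries, against 609, 640.2 and 578 CPM in fasted WT libraries. Fed liver gave 789, 869.7 and 752 CPM in Vps15LKO, against 295, 249.8 and 295 CPM in WT. The groups did not overlap in either state, and fed Vps15LKO stood above fasted WT. The Vps15LKO to WT log2 difference was 1.52 ± 0.12 (SE, n = 3 each) in fed liver (2.87-fold, edgeR quasi-likelihood adjusted p = 1.1e-07). In fasted liver it was 0.73 ± 0.12 (1.66-fold, adjusted p = 7.37e-05). In WT, Sqstm1 rose 2.18-fold with fasting (1.12 ± 0.12, adjusted p = 7.83e-06). In Vps15LKO the fasted to fed difference was 0.33 ± 0.12 (adjusted p = 0.147), with libraries that did not overlap. The effect of fasting in Vps15LKO minus that in WT was −0.79 ± 0.16 (adjusted p = 0.00591).

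**Figure D1:**
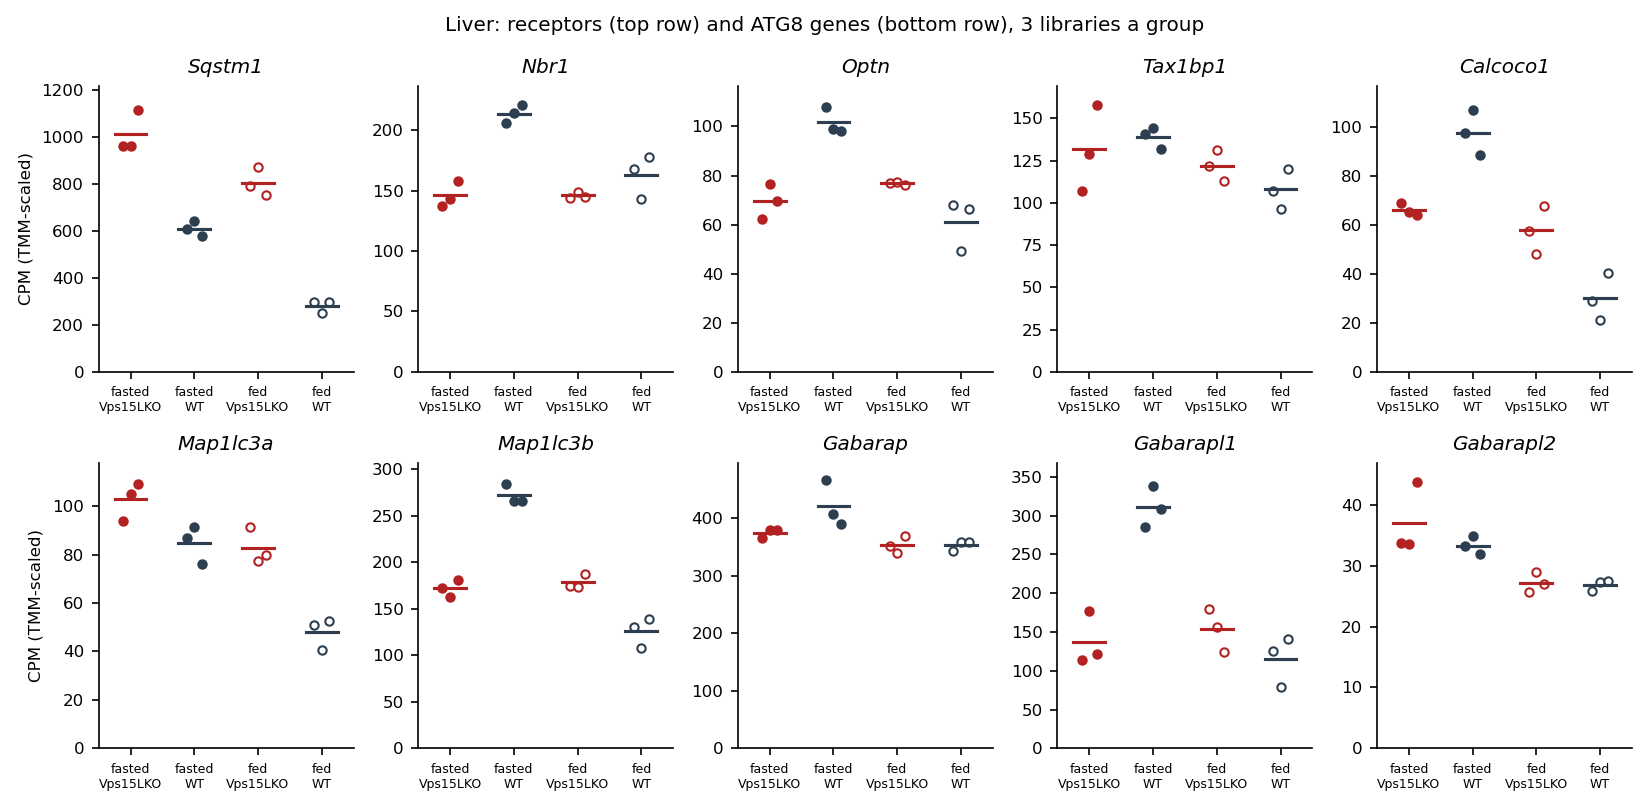
CPM (TMM-scaled, linear axes from 0) of the 5 receptors (top row) and the 5 ATG8 genes (bottom row) in the 12 liver libraries. Each point is a library, each line a group mean, red is Vps15LKO and dark blue WT, filled points are fasted and open points fed. Sqstm1 is highest in fasted Vps15LKO (960.4 to 1114 CPM), whereas Nbr1, Optn, Calcoco1, Map1lc3b and Gabarapl1 are highest in fasted WT.

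The other receptors did not follow Sqstm1 in fasted Vps15LKO liver. Nbr1 encodes a ubiquitin-binding receptor that works beside p62 (ENSMUSG00000017119, chromosome 11, 101552149 to 101581951, plus strand). It had 137, 143 and 158 CPM in fasted Vps15LKO, against 206, 214 and 221 CPM in fasted WT. The fed values were 144, 149 and 145 CPM in Vps15LKO, against 168, 143 and 178 CPM in WT. Fasted WT thus stood above the other 3 groups, which overlapped. Nbr1 fell in Vps15LKO in the fasted state (−0.55 ± 0.11, adjusted p = 0.000481), and its fed difference was −0.16 ± 0.11 (adjusted p = 0.233). It rose with fasting in WT (0.39 ± 0.11, adjusted p = 0.0153), a call lost without fed WT library b (0.30, adjusted p = 0.08) or fasted WT library c (0.36, adjusted p = 0.0549), and without the count filter (0.29, adjusted p = 0.214). In Vps15LKO the effect of fasting was 0.00 ± 0.11 (adjusted p = 0.995, 95% interval −0.21 to 0.21), and the difference of the fasting effects was not called (−0.38 ± 0.15, adjusted p = 0.118).

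Optn encodes optineurin, a receptor for ubiquitinated mitochondria and bacteria that the kinase TBK1 activates (ENSMUSG00000026672, chromosome 2, 5020642 to 5064051, minus strand). It had 62.3, 76.7 and 69.8 CPM in fasted Vps15LKO, against 108, 98.8 and 98.2 CPM in fasted WT. Among fed libraries the levels were 76.9, 77.3 and 76.2 CPM in Vps15LKO, against 68.0, 49.3 and 66.2 CPM in WT. The order of the genotypes thus turned round between the states, with no overlap in either. The log2 difference was −0.55 ± 0.13 fasted (adjusted p = 0.00167) and 0.33 ± 0.13 fed (adjusted p = 0.0439). The fed call was lost in a fit of these 6 libraries alone (0.34, adjusted p = 0.0627), without the count filter (0.32, adjusted p = 0.111) and without fed WT library b (0.19, adjusted p = 0.205). It was also lost without any 1 fed Vps15LKO library, fasted Vps15LKO library c, or fasted WT library b or c (0.32 to 0.33, adjusted p = 0.0501 to 0.0851). With fasting Optn rose in WT (0.73 ± 0.13, adjusted p = 0.000578) and differed by −0.14 ± 0.12 in Vps15LKO (adjusted p = 0.603). The difference of these effects was −0.87 ± 0.18 (adjusted p = 0.00493).

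Calcoco1, a receptor known for turnover of the endoplasmic reticulum and Golgi, also turned round in its order of genotypes between the states (ENSMUSG00000023055, chromosome 15, 102706777 to 102722178, minus strand). Calcoco1 differed more than Optn between the fed genotypes and with fasting in WT, but not between the fasted genotypes. It had 69.1, 65.3 and 64.3 CPM in fasted Vps15LKO, against 97.6, 107 and 88.5 CPM in fasted WT. In fed liver it had 57.4, 48.2 and 67.8 CPM in Vps15LKO, against 29.0, 21.0 and 40.3 CPM in WT. All fed WT libraries were lowest and all fasted WT libraries highest, with Vps15LKO in between in both states. The log2 difference between genotypes was −0.56 ± 0.18 fasted (adjusted p = 0.0153) and 0.94 ± 0.19 fed (adjusted p = 0.000675). The fasted call was lost without fasted WT library b (−0.46, adjusted p = 0.0759). Fasting raised Calcoco1 3.24-fold in WT (1.69 ± 0.19, adjusted p = 1.28e-05), and the difference of the fasting effects was −1.50 ± 0.26 (adjusted p = 0.00161).

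Tax1bp1, a receptor for ubiquitinated cargo related to Calcoco1, had no call in any of the 5 liver comparisons (ENSMUSG00000004535, chromosome 6, 52713729 to 52766780, plus strand). It had 107, 129 and 158 CPM in fasted Vps15LKO, against 141, 144 and 132 CPM in fasted WT. Fed liver gave 122, 131 and 113 CPM in Vps15LKO, against 107, 96.3 and 120.0 CPM in WT. The genotypes overlapped in both states. The log2 difference was −0.08 ± 0.14 fasted (95% interval −0.34 to 0.19) and 0.18 ± 0.14 fed (−0.09 to 0.44). Its rise with fasting in WT (0.36 ± 0.14, adjusted p = 0.0606) passed 0.05 in a fit of these 6 libraries alone (adjusted p = 0.0367) and with Ensembl genes alone (0.40, adjusted p = 0.019).

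Among the ATG8 genes, Gabarapl1 differed most between genotypes in fasted liver. Its protein belongs to the GABARAP subfamily, which acts in autophagosome closure and fusion with lysosomes (ENSMUSG00000030161, chromosome 6, 129533160 to 129542346, plus strand). It had 114, 177 and 121 CPM in fasted Vps15LKO, against 285, 338 and 309 CPM in fasted WT. The fed values were 180.2, 157 and 124 CPM in Vps15LKO, against 125, 78.6 and 141 CPM in WT. The fasted WT libraries stood apart from the other 9, which overlapped. It was 0.442-fold in fasted Vps15LKO (−1.18 ± 0.21, adjusted p = 0.000197), and its fed difference was 0.42 ± 0.21 (adjusted p = 0.113), which passed 0.05 without the count filter (0.41, adjusted p = 0.0192) or without fed WT library c (0.60, adjusted p = 0.0479). Fasting raised it 2.7-fold in WT (1.44 ± 0.21, adjusted p = 0.000149), against −0.16 ± 0.21 in Vps15LKO (adjusted p = 0.736). The difference of the fasting effects, −1.60 ± 0.29 (adjusted p = 0.00259), was the most negative of the 10 members.

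Map1lc3b encodes LC3B, the ATG8 protein most used to mark autophagosomes (ENSMUSG00000031812, chromosome 8, 121590361 to 121598760, plus strand). It had 172, 163 and 181 CPM in fasted Vps15LKO, against 284, 266 and 266 CPM in fasted WT. Among fed libraries the levels were 175, 174 and 188 CPM in Vps15LKO, against 131, 108 and 139 CPM in WT. The Vps15LKO libraries of both states lay between the WT states without overlap. The log2 difference between genotypes was −0.66 ± 0.11 fasted (adjusted p = 0.000115) and 0.51 ± 0.11 fed (adjusted p = 0.00155). Fasting raised it 2.15-fold in WT (1.11 ± 0.11, adjusted p = 5.37e-06) and gave −0.06 ± 0.11 in Vps15LKO (adjusted p = 0.825, 95% interval −0.28 to 0.16). The difference of these effects was −1.17 ± 0.16 (adjusted p = 0.000283).

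Map1lc3a, the gene of LC3A, was lowest in fed WT (ENSMUSG00000027602, chromosome 2, 155276297 to 155278073, plus strand). It had 93.8, 105 and 109 CPM in fasted Vps15LKO, against 86.9, 91.6 and 76.0 CPM in fasted WT. In fed liver it had 91.2, 77.4 and 79.9 CPM in Vps15LKO, against 51.0, 40.7 and 52.7 CPM in WT. The fed genotypes did not overlap (0.78 ± 0.13, adjusted p = 0.000111), and it rose with fasting in WT (0.82 ± 0.13, adjusted p = 0.000226). Its fasted difference between genotypes was 0.27 ± 0.12 (adjusted p = 0.0707), which passed 0.05 without the count filter (0.39, adjusted p = 0.026) and without fasted WT library b (0.36, adjusted p = 0.0446).

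Gabarap and Gabarapl2, the other members of the GABARAP subfamily, had no edgeR call in any liver comparison. Gabarap (ENSMUSG00000018567, chromosome 11, 69991143 to 69994951, plus strand) stood between 339 and 467 CPM over all 12 libraries. Its fasted difference was −0.17 ± 0.10 (95% interval −0.37 to 0.03), with libraries that did not overlap, and its fed difference 0.00 ± 0.10 (−0.20 to 0.20). Its difference with fasting in WT, 0.26 ± 0.10 (adjusted p = 0.0825), was called by DESeq2 (0.25, adjusted p = 0.0335) and with Ensembl genes alone (0.29, adjusted p = 0.0244). Gabarapl2, also known as GATE-16 (ENSMUSG00000031950, chromosome 8, 111940703 to 111953612, plus strand), stood between 25.7 and 43.8 CPM. Its 3 fasted Vps15LKO libraries had 33.7, 33.6 and 43.8 CPM, against 25.7, 28.9 and 27.0 CPM in fed Vps15LKO. These did not overlap (0.44 ± 0.12, adjusted p = 0.0729), and the call was made by DESeq2 (0.44, adjusted p = 0.0402) and with Ensembl genes alone (0.46, adjusted p = 0.0354). In WT its difference with fasting was 0.31 (adjusted p = 0.0761), called with Ensembl genes alone (0.35, adjusted p = 0.024).

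**Figure D2:**
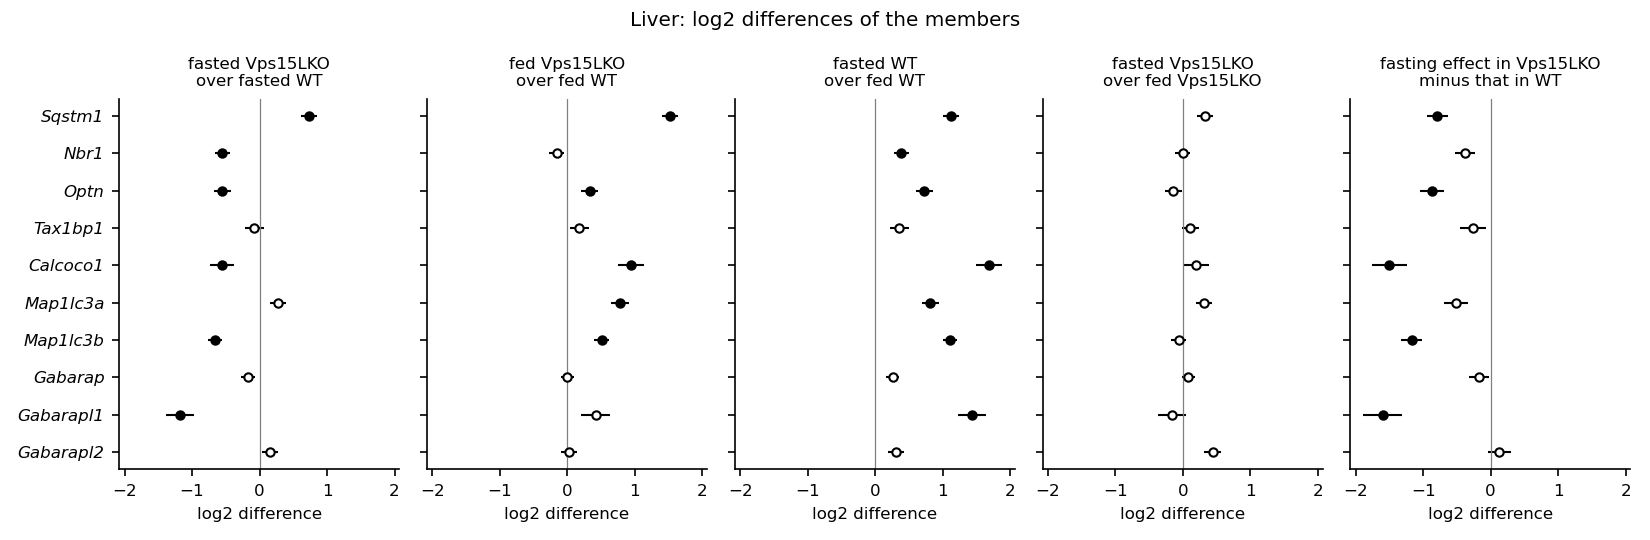
Log2 differences of the 10 members in the 5 liver comparisons, with the standard error as bars and filled points where the edgeR adjusted p is under 0.05. The numerator of each difference is named first in the panel titles. In the panel of fasted over fed Vps15LKO no point is filled and the values run from −0.16 to 0.44, while the last panel holds 5 filled points, all below 0.

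Set against all genes, the members' counts read as follows. The members were chosen with earlier results of these data known, so the counts are a description only. In fasted Vps15LKO against fasted WT, 1 member was higher and 5 lower, where 28.2% of the 23875 tested genes were called higher and 28.1% lower. In fed Vps15LKO against fed WT, 5 were higher, where 23.4% of all genes were higher and 23.0% lower. In fasted against fed WT, 7 were higher, where 12.4% of all genes were higher. In fasted against fed Vps15LKO, edgeR called none, where 0.792% of all genes were higher and 0.599% lower. DESeq2 called 1 member there, and over all 23866 genes it called 439 higher and 498 lower. At an unadjusted edgeR p under 0.05 there were 3 members, a looser threshold for which no share of all genes is given. For the difference of the fasting effects 5 members were called, all negative, where 12.1% of all genes were called in either direction. The median log2 difference of the members was −0.36, 0.37, 0.78, 0.10 and −0.65 in these 5 comparisons, against medians of all genes within 0.02 of 0. Comparisons that share a group share its libraries, so their values are set side by side and are not independent.

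Scaling bears on the genotype comparisons. With library sizes alone, without TMM factors, the median of all genes moved to 0.52 in fasted and 0.39 in fed Vps15LKO against WT, with 11731 genes called higher and 3576 lower in fasted liver (6722 and 6700 with TMM) and 9968 and 3092 in fed liver (5577 and 5483 with TMM). With fasting in WT the median became −0.19, with 1788 higher and 5216 lower (2957 and 3333 with TMM), and in Vps15LKO −0.07, with 160 and 275 (189 and 143 with TMM). For the difference of the fasting effects it became 0.15, with 2232 and 1006 (1517 and 1362 with TMM). On that scale Nbr1 (−0.04), Optn (−0.04), Calcoco1 (−0.05) and Map1lc3b (−0.15) lost their fasted calls, whereas Tax1bp1 (0.43) and Gabarap (0.34) were called higher, with the opposite sign, and Map1lc3a (0.78) and Gabarapl2 (0.66) also gained calls as higher. Relative to the moved median the fasted values were −0.56 for Nbr1, −0.56 for Optn, −0.57 for Calcoco1, −0.67 for Map1lc3b and −1.19 for Gabarapl1. Sqstm1 was higher and Gabarapl1 lower in fasted Vps15LKO under both scalings (1.24 and −0.67 with library sizes alone).

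Ratios within a library do not depend on scaling, and these were chosen after the values were seen. The ratio of Sqstm1 to Nbr1 counts was 6.93 ± 0.169 in fasted Vps15LKO and 2.86 ± 0.208 in fasted WT (SD, n = 3 each). It was 5.51 ± 0.331 in fed Vps15LKO and 1.72 ± 0.0533 in fed WT, with no overlap among the 4 groups. The ratio of Gabarapl1 to Gabarap counts was 0.366 ± 0.0864 in fasted Vps15LKO and 0.744 ± 0.117 in fasted WT. It was 0.437 ± 0.0919 in fed Vps15LKO and 0.326 ± 0.0935 in fed WT, which overlapped. The ratio of Map1lc3b to Gabarap counts was 0.459 ± 0.0269 in fasted Vps15LKO and 0.647 ± 0.0373 in fasted WT. In fed liver it was 0.507 ± 0.00695 in Vps15LKO and 0.357 ± 0.0487 in WT. The order of the genotypes in this ratio turned round between the states, with no overlap in either.

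**Figure D3:**
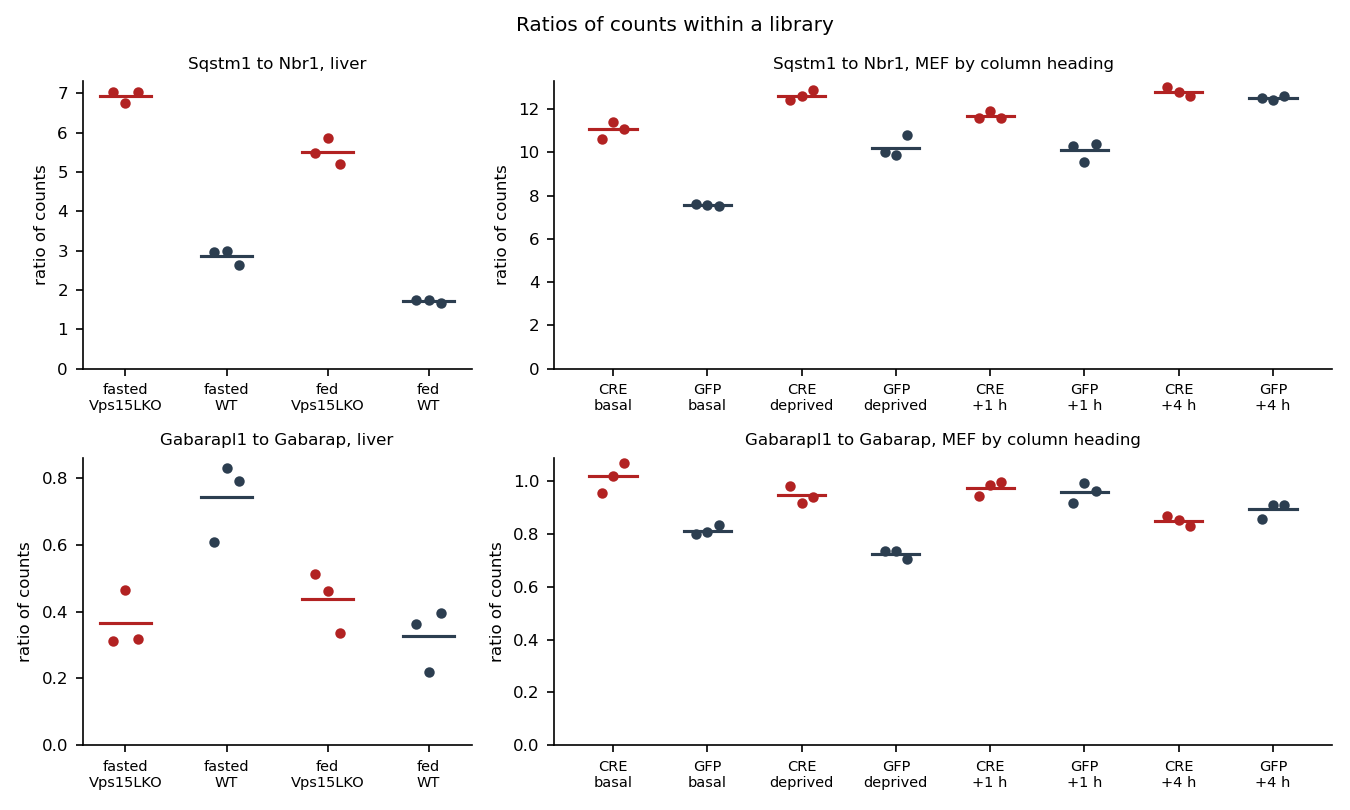
Ratio of counts of Sqstm1 to Nbr1 (top) and of Gabarapl1 to Gabarap (bottom) in each library, for liver on the left and MEFs by column heading on the right, on linear axes from 0. Points are libraries and lines group means, with red for Vps15LKO or CRE and dark blue for WT or GFP. In liver the Sqstm1 ratio averages 6.93 in fasted Vps15LKO, 2.86 in fasted WT, 5.51 in fed Vps15LKO and 1.72 in fed WT.

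Summed over the 5 ATG8 genes, the level per exon length was 372, 419 and 401 in fasted Vps15LKO, against 521, 517 and 479 in fasted WT (CPM per kilobase). The weight of each gene in this sum depends on its annotated exon length. It was 392, 363 and 366 in fed Vps15LKO, against 320.1, 294 and 339 in fed WT. Fasted WT was highest and fed WT lowest, and the Vps15LKO libraries lay between, with no overlap between genotypes in either state. Gabarap held 51.3% ± 2.08 of the sum in fasted Vps15LKO and 45.2% ± 3.08 in fasted WT. Gabarapl1 held 17.1% ± 3.38 in fasted Vps15LKO and 30.6% ± 2.94 in fasted WT. Map1lc3a held 21.9% ± 1.04 in fasted Vps15LKO and 14.2% ± 0.776 in fasted WT. Shares of the same sum are tied, so a smaller Gabarapl1 share enlarges the others. The level of Gabarap itself averaged 203 in fasted Vps15LKO and 229 in fasted WT, and that of Map1lc3a 86.9 and 71.8 (CPM per kilobase).

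**Figure D4:**
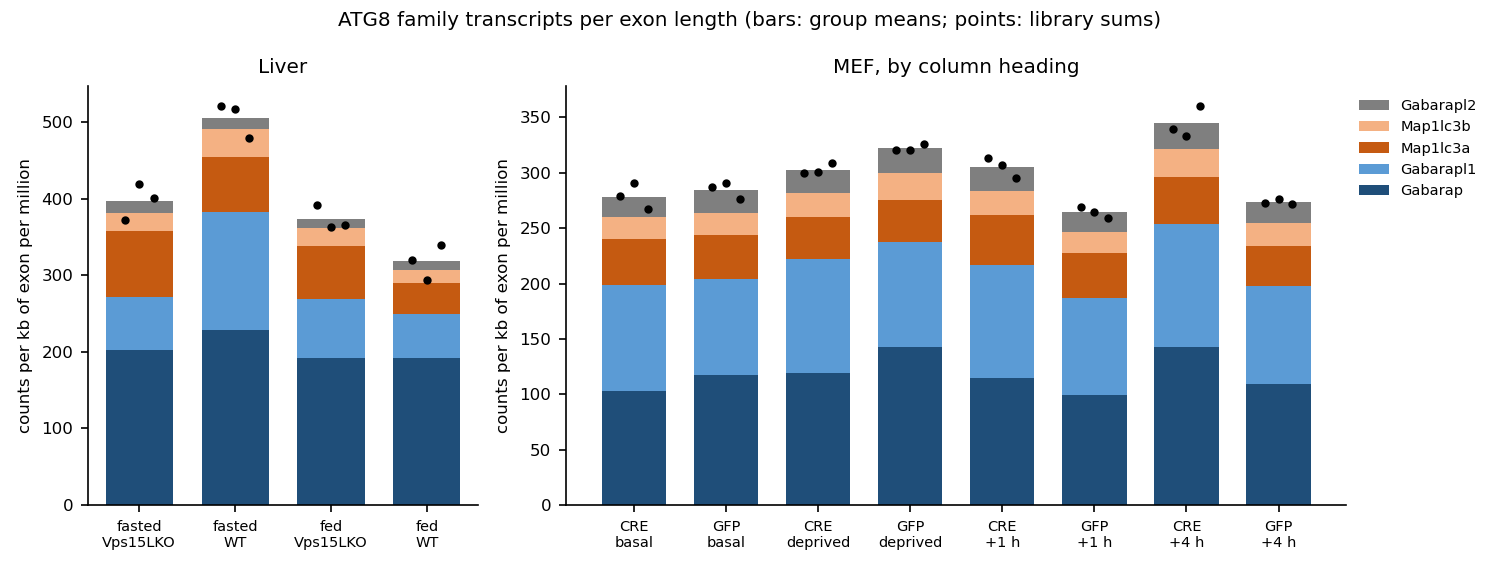
Level per exon length of the 5 ATG8 genes, stacked as group means, in liver (left) and MEFs by column heading (right), in CPM per kilobase of exon on linear axes from 0. Black points are the library sums. In liver the sum is highest in fasted WT (479 to 521) and lowest in fed WT (294 to 339).

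The rest of the autophagy machinery was read from lists chosen by function, also with earlier results of these data known. Of 39 core genes (ULK complex, class 3 kinase complex, ATG9, ATG2 and lipid effectors, ATG8 conjugation and fusion), 7 were higher and 21 lower in fasted Vps15LKO against fasted WT, where 28.2% of all genes were higher and 28.1% lower. All 5 genes of the ULK complex, the kinase that starts autophagy, fell there, led by Atg101 (−1.29 ± 0.13, adjusted p = 5.59e-07) and Ulk2 (−1.02 ± 0.13, adjusted p = 9.91e-06). In the ATG8 conjugation list 6 of 10 fell and 2 rose, with Atg5 (−1.25 ± 0.13, adjusted p = 6.41e-07) and the ATG8 protease gene Atg4d (−1.11 ± 0.12, adjusted p = 1.05e-06) first by p. In the class 3 kinase complex Atg14, its autophagy-specific subunit, fell (−1.02 ± 0.14, adjusted p = 1.69e-05), as did Nrbf2 (−0.68 ± 0.16, adjusted p = 0.00211), and 1 of the 8 rose. In the list of ATG9, ATG2 and lipid effectors 5 of 8 fell and 1 rose, and among 8 fusion genes 3 fell and 3 rose. In fed Vps15LKO against fed WT 6 of the 39 core genes were higher and 9 lower, near or under the shares of all genes (23.4% higher and 23.0% lower), among them the ATG8 conjugating enzyme gene Atg3 (−1.27 ± 0.13, adjusted p = 1.64e-06). In WT 14 core genes rose with fasting, where 12.4% of all genes rose, among them Atg14 (0.92 ± 0.14) and Ulk1 (0.72 ± 0.14). In Vps15LKO none was called with fasting, where only 0.792% of all genes were higher and 0.599% lower, so few calls could come from a list of this size.

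Membrane-anchored and other cargo receptors were counted beside the soluble ones. Of 17 tested genes on a list of 19, 2 were higher and 11 lower in fasted Vps15LKO against fasted WT (median −0.38), beside the same 28.2% and 28.1% of all genes. Bnip3, a mitophagy receptor gene, had the smallest p and fell (−1.88 ± 0.17, adjusted p = 1.76e-07). With fasting in WT 11 of the 17 rose (12.4% of all genes), with the glycogen receptor gene Stbd1 (1.01 ± 0.15, adjusted p = 0.000206) and the reticulum receptor gene Retreg1 (1.08 ± 0.19, adjusted p = 0.000645) first by p. In fed liver 3 were higher and 5 lower in Vps15LKO, near the 23.4% and 23.0% of all genes, among them Retreg1 (1.24 ± 0.19) and Bnip3 (−1.13 ± 0.16). Of 8 genes of autophagy regulators, 3 were higher and 3 lower in fasted Vps15LKO against fasted WT (median −0.00), where 28.2% of all genes were higher and 28.1% lower. The forkhead factor genes Foxo1 (−1.16 ± 0.15, adjusted p = 7.6e-06) and Foxo3 (−1.33 ± 0.17, adjusted p = 8.58e-06) were first by p.

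Targets of NRF2 other than Sqstm1 were counted from a list of 18. Of these, 13 were higher and 1 lower in fasted Vps15LKO against fasted WT (median 1.55), and 15 were higher in fed Vps15LKO against fed WT (median 1.10). The shares of all genes were 28.2% higher and 28.1% lower in fasted and 23.4% and 23.0% in fed liver. The sulfiredoxin gene Srxn1 was among them, with log2 differences of 4.34 ± 0.18 fasted (adjusted p = 4.68e-10) and 4.67 ± 0.18 fed (adjusted p = 2.54e-10). With fasting in WT 4 rose and 6 fell, where 2957 of all 23875 tested genes rose and 3333 fell. Among those that fell was the pentose phosphate gene Pgd (−0.97 ± 0.11, adjusted p = 2.17e-05). Sqstm1 rose in the same comparison, and any link of these targets to its liver values was not tested.

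The liver genes whose library values ran closest to Sqstm1 were Junb, Blvrb, Zwint, Cda and Cblc, among 10021 genes compared. Their root mean square difference, each gene centred on its own mean, was 0.17 to 0.18 on the log2 scale over the 12 libraries, where Sqstm1 itself spread by 0.71. Closest to Map1lc3b were Hps4, Oxa1l, Rtf2, Dennd4a and Dirc2, at 0.09 to 0.13, where Map1lc3b spread by 0.41.

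The MEF values are given by column heading, for a reason that comes before the results. Mat2a, chosen after its values were seen, encodes the enzyme that makes S-adenosylmethionine and is known to rise when methionine is withdrawn. Under CRE it averaged 13.60, 13.59, 11.80 and 11.43 in columns headed basal, deprived, 1 h and 4 h, and under GFP 12.34, 12.17, 13.89 and 13.77 (deposited log2 values, highest SD 0.50). No rise went with the heading deprived under either virus, and the virus with the higher value turned round between deprived and 1 h. Pik3r4 was higher under CRE than under GFP in basal columns (0.23 ± 0.05, limma adjusted p = 0.000332), deprived (0.21 ± 0.05, 0.000557) and 1 h columns (0.15 ± 0.05, 0.0163) and differed by 0.05 ± 0.05 at 4 h (0.414), so that unlike Mat2a it did not turn round between deprived and 1 h. As in liver its total does not check a deletion. Whether the headings name what the cells received was thus not settled by these values. CRE library 3 at 4 h stood apart. The chi-square per degree of freedom of counts, 1 for counting error alone, was 18.1 and 16.3 for its pairs and 1.81 to 4.71 for the other MEF pairs. All 7 fibroblast markers had counts in every MEF group, and the 8 hepatocyte markers summed to under 1 CPM (0.237 to 0.765 over all libraries).

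Per exon length, Sqstm1 was again the most abundant member in MEFs, at a median of 521 CPM per kilobase over 24 libraries. Gabarap (116), Gabarapl1 (95.0) and Map1lc3a (39.2) came next on that scale, and Optn was last (1.65). The same exon lengths were used as in liver, so this order too depends on the annotation. Of 9 neighbouring pairs 4 did not overlap, namely Sqstm1 and Gabarap, Gabarapl1 and Map1lc3a, Map1lc3a and Nbr1, and Gabarapl2 and Optn.

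Sqstm1 had log2 values of 15.15, 15.22 and 15.21 in CRE basal columns, against 14.48, 14.46 and 14.41 in GFP basal columns. In deprived columns it had 15.62, 15.67 and 15.70 under CRE, against 15.15, 15.11 and 15.16 under GFP. CRE was above GFP in both media without overlap. In 1 h columns it had 14.90, 14.82 and 14.85 under CRE, against 15.09, 15.07 and 15.11 under GFP. In 4 h columns it had 15.34, 15.33 and 15.38 under CRE, against 15.57, 15.54 and 15.59 under GFP. Here CRE was below GFP, again without overlap. The CRE minus GFP difference was 0.75 ± 0.03 basal (limma adjusted p = 4.68e-19), 0.53 ± 0.03 deprived (2.22e-15), −0.23 ± 0.03 at 1 h (2.4e-07) and −0.22 ± 0.03 at 4 h (7.11e-07). From deprived to 1 h the change was −0.81 ± 0.03 under CRE (adjusted p = 5.28e-20) and −0.05 ± 0.03 under GFP (0.204), and their difference was −0.76 ± 0.05 (7.75e-16). From basal to deprived columns Sqstm1 rose under both headings, by 0.47 ± 0.03 under CRE and 0.69 ± 0.03 under GFP (difference −0.22 ± 0.05, adjusted p = 0.00331). From 1 h to 4 h it rose by 0.49 ± 0.03 under CRE and 0.48 ± 0.03 under GFP (difference 0.02 ± 0.05, adjusted p = 0.877).

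**Figure D5:**
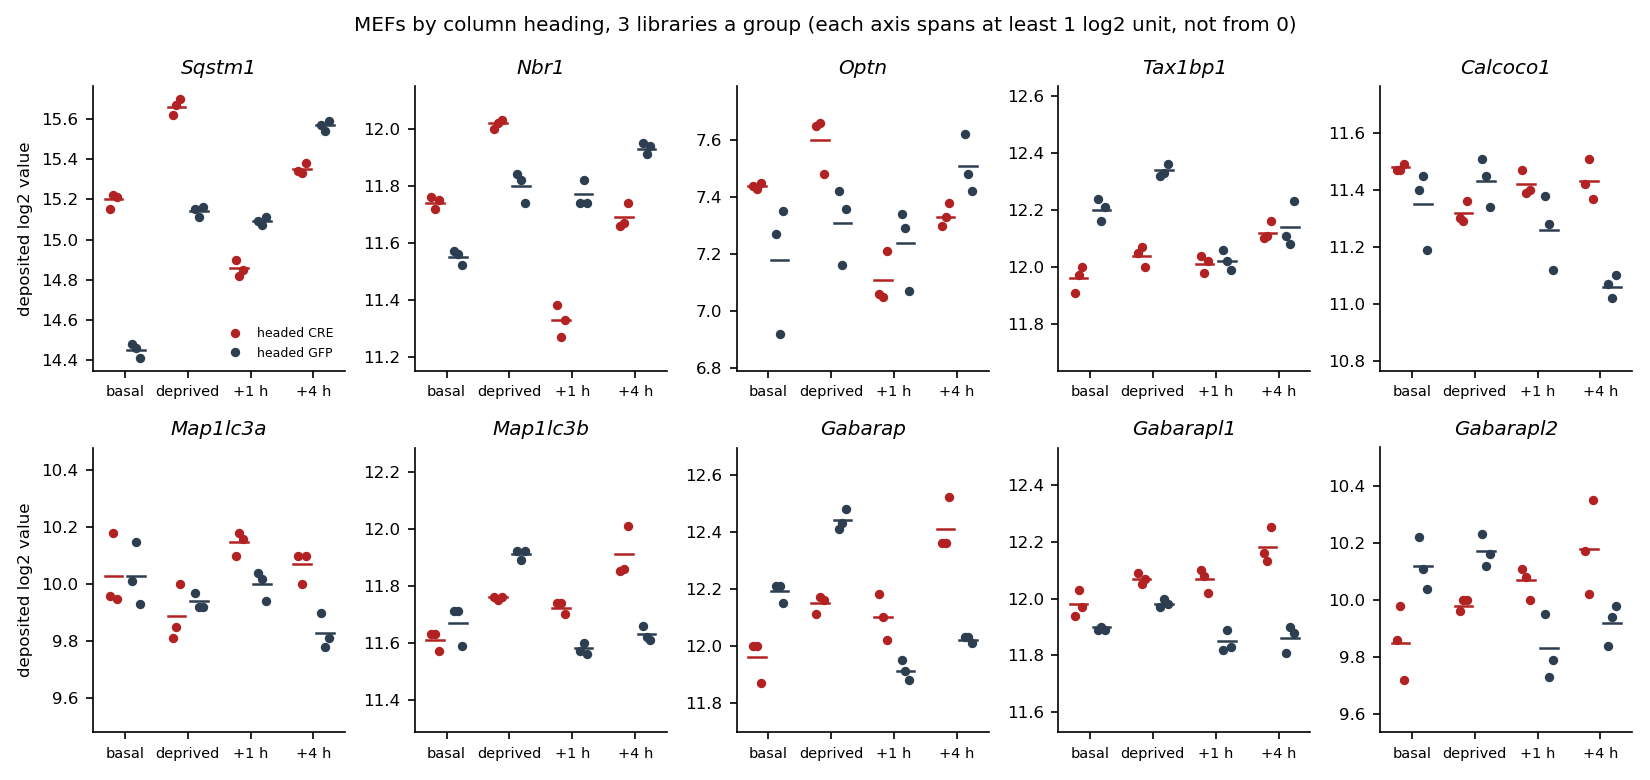
Deposited log2 values of the 10 members in the 24 MEF libraries by column heading, with media from left to right as basal, deprived, 1 h and 4 h of methionine given back. Red points are headed CRE and dark blue points GFP, lines are group means, and each axis spans at least 1 log2 unit without starting at 0. Sqstm1 and Nbr1 are higher under CRE in the first 2 media and lower in the last 2, and Gabarap has the opposite order.

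Nbr1 had the same order. The CRE minus GFP difference was 0.20 ± 0.04 basal (adjusted p = 2.65e-05), 0.22 ± 0.04 deprived (5.19e-06), −0.44 ± 0.04 at 1 h (5.55e-12) and −0.25 ± 0.04 at 4 h (6.96e-07). Its means were 11.74, 12.02, 11.33 and 11.69 under CRE and 11.55, 11.80, 11.77 and 11.93 under GFP, from basal to 4 h. Under CRE it fell by 0.69 on the log2 scale from deprived to 1 h (adjusted p = 8.09e-17), whereas the GFP change was −0.03 ± 0.04 (0.509). Optn, at log2 values of 6.92 to 7.66 the least abundant member, was higher under CRE in basal (0.26 ± 0.10, adjusted p = 0.0244) and deprived columns (0.28 ± 0.10, 0.0134). The basal call was lost without GFP basal library 2 (0.13, adjusted p = 0.28) or CRE basal library 3 (0.25, 0.0583), and the deprived call without GFP deprived library 2 (0.21, 0.103) or CRE deprived library 1 (0.26, 0.0507) or 2 (0.25, 0.0539). Both Optn calls were lost with each library shifted to 1 median (0.19 and 0.21, adjusted p = 0.097 and 0.0676).

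Gabarap and Gabarapl2 ran the other way in all 4 media, and Tax1bp1 in the basal and deprived columns. Gabarap averaged 11.96 ± 0.08 under CRE, against 12.19 ± 0.04 under GFP in basal columns (SD, n = 3 each). In deprived columns it had 12.11, 12.17 and 12.16 under CRE, against 12.41, 12.43 and 12.48 under GFP. In 1 h columns it had 12.18, 12.10 and 12.02 under CRE, against 11.95, 11.91 and 11.88 under GFP. CRE was thus below GFP in the first pair of media and above it at 1 h and at 4 h (12.36, 12.36 and 12.52 under CRE, 12.03, 12.03 and 12.01 under GFP), without overlap in any. The CRE minus GFP difference was −0.23 ± 0.04 basal (adjusted p = 2.8e-05), −0.29 ± 0.04 deprived (6.21e-07), 0.19 ± 0.04 at 1 h (0.000455) and 0.39 ± 0.04 at 4 h (3.25e-09). Under GFP it fell by 0.53 from deprived to 1 h (adjusted p = 3.56e-12), against −0.05 ± 0.04 under CRE (0.355). Gabarapl2 was lower under CRE in basal (−0.27 ± 0.07, adjusted p = 0.00174) and deprived columns (−0.18 ± 0.07, 0.0245), the second lost without library 1 of deprived GFP (−0.15, 0.0959) or CRE (−0.17, 0.0705). It was higher at 1 h (0.24 ± 0.07, 0.00543) and 4 h (0.26 ± 0.07, 0.00217). Tax1bp1 was lower under CRE in basal (−0.25 ± 0.04, 1.74e-06) and deprived columns (−0.30 ± 0.04, 4.24e-08) and differed by −0.01 ± 0.04 at 1 h and −0.02 ± 0.04 at 4 h (adjusted p = 0.842 and 0.682).

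Map1lc3b differed by −0.06 ± 0.04 in basal columns (adjusted p = 0.198), was lower under CRE in deprived columns (−0.16 ± 0.04, 0.00111) and higher at 1 h (0.15 ± 0.04, 0.00208) and 4 h (0.27 ± 0.04, 5.18e-07). Its means under CRE were 11.61, 11.76, 11.72 and 11.91, and under GFP 11.67, 11.91, 11.58 and 11.63, from basal to 4 h. Gabarapl1 was higher under CRE at 1 h (0.22 ± 0.04, 8.05e-06) and 4 h (0.32 ± 0.04, 6.17e-09), and its basal difference was 0.08 ± 0.04 (0.0503). Its deprived difference (0.09 ± 0.04, adjusted p = 0.0411) lost the call without the filter (adjusted p = 0.09), with no trend or robust moderation (0.0526) and with each library shifted to 1 median (0.01, 0.814), and without any 1 of the 6 libraries compared other than CRE deprived library 2 (0.08 to 0.09, adjusted p = 0.059 to 0.11). Map1lc3a was higher under CRE at 1 h (0.15 ± 0.06, adjusted p = 0.038) and 4 h (0.24 ± 0.06, 0.000872), and the 1 h call was lost without the filter (0.0714) and without 1 h library 2 or 3 of either heading (0.12 to 0.16, adjusted p = 0.0548 to 0.149). Calcoco1 was higher under CRE at 1 h (0.16 ± 0.06, 0.0229), a call lost without GFP 1 h library 3 (0.09, 0.2) or CRE 1 h library 1 (0.13, 0.0951), and 4 h (0.37 ± 0.06, 4.6e-06), with 11.42, 11.51 and 11.37 under CRE and 11.07, 11.02 and 11.10 under GFP at 4 h.

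Over the 10 members, CRE against GFP gave 3 higher and 3 lower in basal columns, where 29.7% of 13914 tested genes were higher and 28.6% lower. Deprived columns gave 4 higher and 4 lower (32.0% and 30.6% of all genes), 1 h columns 6 and 2 (26.9% and 28.1%) and 4 h columns 6 and 2 (30.8% and 29.0%). Between media under CRE, 4 rose and 1 fell from basal to deprived columns (15.0% and 13.5% of all genes). From deprived to 1 h, 1 rose and 3 fell (30.0% and 30.1%), and from 1 h to 4 h 6 rose (13.4% of all genes rose). Under GFP, 5 rose from basal to deprived columns (10.0% of all genes rose and 13.6% fell). From deprived to 1 h, 6 fell (30.7% of all genes rose and 28.8% fell), and from 1 h to 4 h 5 rose and 2 fell (17.9% and 18.8%). The difference between the CRE and GFP changes passed 0.05 for 1 member from basal to deprived (4.78% of all genes), for all 10 from deprived to 1 h (66.5%) and for 2 from 1 h to 4 h (7.14%). Of the 10, Map1lc3a (0.19, adjusted p = 0.0436) and Gabarapl1 (0.13, adjusted p = 0.0289) were not called without the filter or with edgeR on recovered counts, which left 8. With any 1 library left out the count was 8 to 10. Map1lc3a lost the call without deprived library 1 or 2 or 1 h library 2 of either heading, or 1 h library 3 of either heading (adjusted p = 0.0504 to 0.128). Gabarapl1 lost it without deprived library 2 of either heading, CRE 1 h library 1 or 2, or GFP 1 h library 1 or 3 (adjusted p = 0.0568 to 0.0735). Without CRE deprived library 1 the CRE against GFP count in deprived columns became 5, and without GFP 1 h library 3, or GFP 4 h library 2 or 3, the count from 1 h to 4 h under GFP became 4. Without CRE library 3 at 4 h the difference of the changes from 1 h to 4 h passed for 1 member, the CRE against GFP count at 4 h stayed 8, and the count from 1 h to 4 h under CRE became 4.

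Shifting each MEF library to 1 median moved the split of all genes. CRE against GFP then gave 3204 genes higher and 5111 lower in basal (4127 and 3986 as deposited), 3582 and 5449 in deprived (4457 and 4260) and 4903 and 3067 in 1 h columns (3745 and 3913). From deprived to 1 h the split was 5302 and 3466 under CRE (4180 and 4189) and 3373 and 5229 under GFP (4271 and 4004). The difference of these changes gave 6107 and 3660 (4658 and 4599), with the median of all genes at 0.17, and from 1 h to 4 h it gave 395 and 536 (591 and 403). On that scale Map1lc3b was lower under CRE in basal columns (−0.13, adjusted p = 0.00635) and Calcoco1 in deprived columns (−0.19, adjusted p = 0.00615). Under GFP, Sqstm1 (−0.12) and Nbr1 (−0.11) then fell from deprived to 1 h.

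In the same columns the 39 core autophagy genes gave 19 higher and 5 lower under CRE than GFP in basal, 22 and 8 in deprived, 15 and 18 in 1 h and 15 and 16 in 4 h columns. Over the 4 media 26.9% to 32.0% of all genes were higher and 28.1% to 30.6% lower, and several of these and the following counts lie near those shares. Of 18 tested other receptors, 6 were higher and 7 lower in basal and 11 and 4 in 4 h columns. Of 8 regulators, 5 were higher and 1 lower in basal and 2 and 5 in 4 h columns. Of 17 tested NRF2 targets, 6 were higher and 9 lower in basal and 13 and 3 in 4 h columns. The heme oxygenase gene Hmox1 was higher under CRE in basal columns (2.28 ± 0.05, adjusted p = 4.69e-28). The quinone reductase gene Nqo1 was higher under CRE in 4 h columns (1.21 ± 0.05, 2.79e-20). Any link of these targets to the Sqstm1 values was not tested.

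The MEF genes closest to Sqstm1 by the same measure were Atp6v1b2, Slc6a8, Hs1bp3, Npc1 and Nupr1, at 0.11 to 0.13 over the 24 libraries, among 6893 genes, where Sqstm1 spread by 0.36. Closest to Map1lc3b were Sumf1, Psap, Klhdc10, Slmap and Vps26c, at 0.04 to 0.05, where Map1lc3b spread by 0.13.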

How the data were processed

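The authors deposited raw counts per gene for the 12 liver libraries, made with HISAT2 and Subread per the submitters' processing notes, which name build mm10. For the 24 MEF libraries they deposited log2 values from a variance-stabilizing transformation, and the notes list STAR 2.7.10b, featureCounts, DESeq2 and limma. Versions of the other tools and the strand setting were not given in the sources used here. Per the labels' protocols, RNA was poly-A enriched and libraries were made with dUTP.

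Liver counts were tested with edgeR 4.0.16 (quasi-likelihood, TMM, filterByExpr, 23875 genes, 12 libraries, 1 mean per group) and MEF log2 values with limma 3.58.1 (trend and robust moderation, 13914 genes with a mean at least 1 above the lowest value, 4.17), with Benjamini-Hochberg adjustment over all tested genes and a threshold of 0.05. Intervals are at the 95% level from the SE. Undoing the transformation gave whole counts within 0.01 for 100% of MEF values, used for depth, levels per length and alternatives only. DESeq2 1.42.0, R 4.3.3 and Python 3.11.15 were also used. The edgeR and DESeq2 tests were checked on simulated counts, and the limma test on simulated log2 values drawn from a normal distribution.

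Liver columns show the group but no number, so libraries are called a, b and c in file order; MEF columns are named by heading. The number of columns not used was 0. Of 48526 Ensembl identifiers, 48058 matched a symbol in GENCODE M21 (GRCm38); 87774 NONCODE rows held 20.5 to 24.8% of counts. Chi-square per degree of freedom between liver replicates was 6.59 to 14.6. All 10 members were tested and counted in every comparison, but not every value is printed. Of the other lists at most 2 genes of smallest adjusted p per list and comparison are named, and by likeness 5 genes. The members and lists were chosen with earlier results of these data known. Protein sequences were not used here.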

Additional observations from a re-analysis of the deposited data

Results flagged for a closer look

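In liver, the effect of fasting differed between Vps15LKO and WT by a test of the difference itself (edgeR, adjusted over 23875 genes) for 5 members. Of all tested genes 12.1% were called in either direction. The difference, Vps15LKO minus WT on the log2 scale, was −0.79 for Sqstm1, −0.87 for Optn, −1.50 for Calcoco1, −1.17 for Map1lc3b and −1.60 for Gabarapl1.

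In MEF columns, the change from basal to deprived differed between CRE and GFP for Sqstm1 (−0.22, CRE minus GFP, limma), where 4.78% of all tested genes passed. The change from deprived to 1 h differed for all 10 members by limma. Map1lc3a and Gabarapl1 lost this call without the filter (adjusted p = 0.081 and 0.0649) and with edgeR on recovered counts (0.0807 and 0.0587), which left 8 members, and Map1lc3a lost it without trend and robust moderation (0.0698) and with DESeq2 (0.0632). It was −0.76 for Sqstm1, −0.66 for Nbr1 and −0.41 for Optn. It was positive for the others, at 0.29 for Tax1bp1, 0.27 for Calcoco1, 0.19 for Map1lc3a, 0.30 for Map1lc3b, 0.48 for Gabarap, 0.13 for Gabarapl1 and 0.42 for Gabarapl2. In that comparison 66.5% of all tested genes passed. The change from 1 h to 4 h differed for Nbr1 (0.20) and Gabarap (0.20), where 7.14% of all tested genes passed.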

How the results depend on the processing

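The count of liver members called in fed Vps15LKO against fed WT was 5 (5577 of all 23875 genes higher and 5483 lower), and 9 with library sizes alone (9968 and 3092). In fasted against fed Vps15LKO it was 0 with edgeR, and 1 with DESeq2, with Ensembl genes only or without fasted Vps15LKO library b (Gabarapl2, 0.51, adjusted p = 0.0359). In fasted against fed WT it was 7 (2957 of 23875 genes higher and 3333 lower), and 10 with Ensembl genes only (2315 and 2569 of 14423). It was 8 with DESeq2 or in a fit of these groups alone, and 6 without the filter or with library sizes alone. In fasted Vps15LKO against WT it was 6, and 7 without the filter (Map1lc3a, 0.39, adjusted p = 0.026). For the difference of the fasting effects it was 5, and 6 with Ensembl genes only (Map1lc3a, −0.52, adjusted p = 0.0288). The signs of Tax1bp1 (0.43) and Gabarap (0.34) in fasted Vps15LKO against fasted WT reversed with library sizes alone, a scaling that moved the median of all genes to 0.52. Over fits that left out 1 library, the counts were 6 in fasted Vps15LKO against WT, 4 to 6 in fed, 6 to 9 in fasted against fed WT, 0 to 1 in fasted against fed Vps15LKO, and 5 for the difference of the fasting effects. Of 600 member values from these fits 583 kept their call, 10 lost it, 7 gained one and 0 reversed. Over all genes, fasted against fed Vps15LKO gave 189 higher and 143 lower, but 439 and 498 with DESeq2, 836 and 722 without the filter, 269 and 249 with Ensembl genes, 21 and 6 in a fit of these groups alone, and 4 to 1273 in total with 1 library left out.

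In MEFs, the difference of changes from 1 h to 4 h gave 2 members, but 1 with each library shifted to 1 median, without the filter, without trend or robust moderation or with edgeR on recovered counts, 0 in a fit of the compared groups alone, and 0 to 3 with 1 library left out. From basal to deprived it gave 1, but 2 in a fit of the compared groups and 1 to 2 with 1 library left out. Leaving out 1 library gave 5 to 9 members for CRE against GFP in deprived columns and 4 to 7 from 1 h to 4 h under GFP. Of 3120 member values from such fits 3024 kept their call, 72 lost it and 24 gained one. Shifting libraries to 1 median moved the median of all genes to 0.17 for the difference of changes from deprived to 1 h, where Optn became −0.27 (adjusted p = 0.0885). Over all genes, the basal to deprived difference of changes gave 450 higher and 215 lower, but 280 and 139 without the filter, 679 and 430 in a fit of the compared groups and 360 to 1080 in total with 1 library left out. From 1 h to 4 h it gave 591 and 403, but 386 and 260 without the filter and 288 and 189 in a fit of the compared groups. The change from 1 h to 4 h under CRE gave 1866 and 1673, but 1244 and 973 in a fit of the compared groups. DESeq2 on recovered counts was added after the data were seen. edgeR on recovered counts called 4357 genes higher and 3880 lower for CRE against GFP in basal, 4748 and 4176 in deprived, 3788 and 4030 in 1 h and 4192 and 4282 in 4 h columns. Where calls changed, the cause was not tested.

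With the replicate number as a block in MEFs, Calcoco1 (0.13, adjusted p = 0.0309) and Gabarapl1 (0.08, adjusted p = 0.0459) gained calls for CRE against GFP in basal columns, and the basal to deprived difference of changes gave 2 members (Calcoco1 added, −0.25, adjusted p = 0.0431). Over all genes that difference gave 583 higher and 326 lower with the block, against 450 and 215 without it. Libraries of the same number deviated together weakly (r −0.163 to 0.23 over 84 pairs, median 0.0244, against −0.0166 for other numbers). Of 24 libraries 17 were closest to their own number, out of 3 numbers. The main fit used no block, and whether the numbers mark pairs was not settled by these values. No paired analysis was possible in liver because the columns carry no replicate numbers.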
